A study of Mus musculus with 10 samples.

Results

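The kynurenine route of tryptophan breakdown was followed in mouse jejunum through 8 genes: Ido1, Ido2, Tdo2, Afmid, Kmo, Kynu, Haao and Ahr. Each was read by 1 probe set whose single gene symbol was on that list, and together they made up 8 of the 22180 genes tested. The list was put together with the knockout and control differences of these arrays in view, so for these 8 genes those differences are given as a description, without a test.

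The arrays numbered 1 to 5 came from female mice labelled Pcyt1aLoxP/LoxP;VilCreERT2, called knockouts here, and arrays 6 to 10 from females labelled Pcyt1aLoxP/LoxP, called controls. All were 10 to 12 weeks old, and both groups received tamoxifen for 5 days, then a diet rich in fat for 4 days and an overnight fast before a 3 cm piece of jejunum was taken. VilCreERT2 is a Cre recombinase that tamoxifen switches on and that the villin promoter restricts to the gut epithelium, so muscle, stroma and immune cells in the piece keep the gene. Pcyt1a encodes the enzyme that sets the rate of the CDP-choline route to phosphatidylcholine. The source label of the controls also speaks of absent phosphatidylcholine synthesis, and the series text speaks of re-feeding, against the titles, genotypes and protocols used here. Nothing in the labels says that the samples were separate mice, so p-values and SDs measure the spread between these samples, which may be technical.

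Pcyt1a was lower on all 5 knockout arrays, at a mean log2 intensity of 7.46 ± 0.25 against 9.39 ± 0.17 in controls (SD, n = 5 each; limma adjusted p = 9.577e-05), so the targeted gene followed the labels. Which exons lie between the LoxP sites is not stated, and the probe set may reach beyond them. Enterocyte markers were high on all 10 arrays, with a marker score (the mean log2 intensity of the listed markers) between 12.56 and 12.93. Several arrays stood apart in other markers. Paneth cell scores were 9.01 on knockout 2 and 8.69 on control 6, against 9.58 to 11.17 on the others. Smooth muscle scores reached 10.19 (control 7), 8.98 (control 9) and 8.27 (knockout 1), against 6.38 to 7.01 elsewhere, and hepatocyte scores were 7.79 on control 8 against 6.04 to 6.40 on the others. In whole tissue, fewer cells of a type and less RNA per cell cannot be told apart.

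Most tryptophan that the body does not build into protein is broken down through kynurenine. Ido1, Ido2 and Tdo2 encode enzymes that open the indole ring, and Afmid encodes the formamidase that releases kynurenine. Kmo hydroxylates kynurenine, Kynu cleaves the side chain, and Haao makes the precursor of quinolinate, from which NAD can be built. Ido1 is induced by interferon gamma in many cells, Tdo2 is the hepatic enzyme of the same step, and kynurenine is among the ligands of the aryl hydrocarbon receptor, encoded by Ahr.

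Ido1 had the most negative difference of the 8 genes. Its log2 intensity on knockouts 1 to 5 was 6.97, 7.68, 6.68, 6.86 and 6.97, and on controls 6 to 10 it was 8.75, 7.83, 8.14, 7.99 and 7.87. Every knockout lay below every control, with a gap of 0.15 between knockout 2, the highest knockout, and control 7, the lowest control. The group means were 7.03 ± 0.38 and 8.12 ± 0.37 (SD, n = 5 each), a log2 difference of -1.08 (SE 0.21), which put the knockout level at 0.472 of the control level. Ordered from the most negative difference, Ido1 was number 20 of the 22180 genes. Ido1 lies on mouse chromosome 8, at 24584133 to 24596952 of assembly GRCm38.p6.

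**Figure D1:**
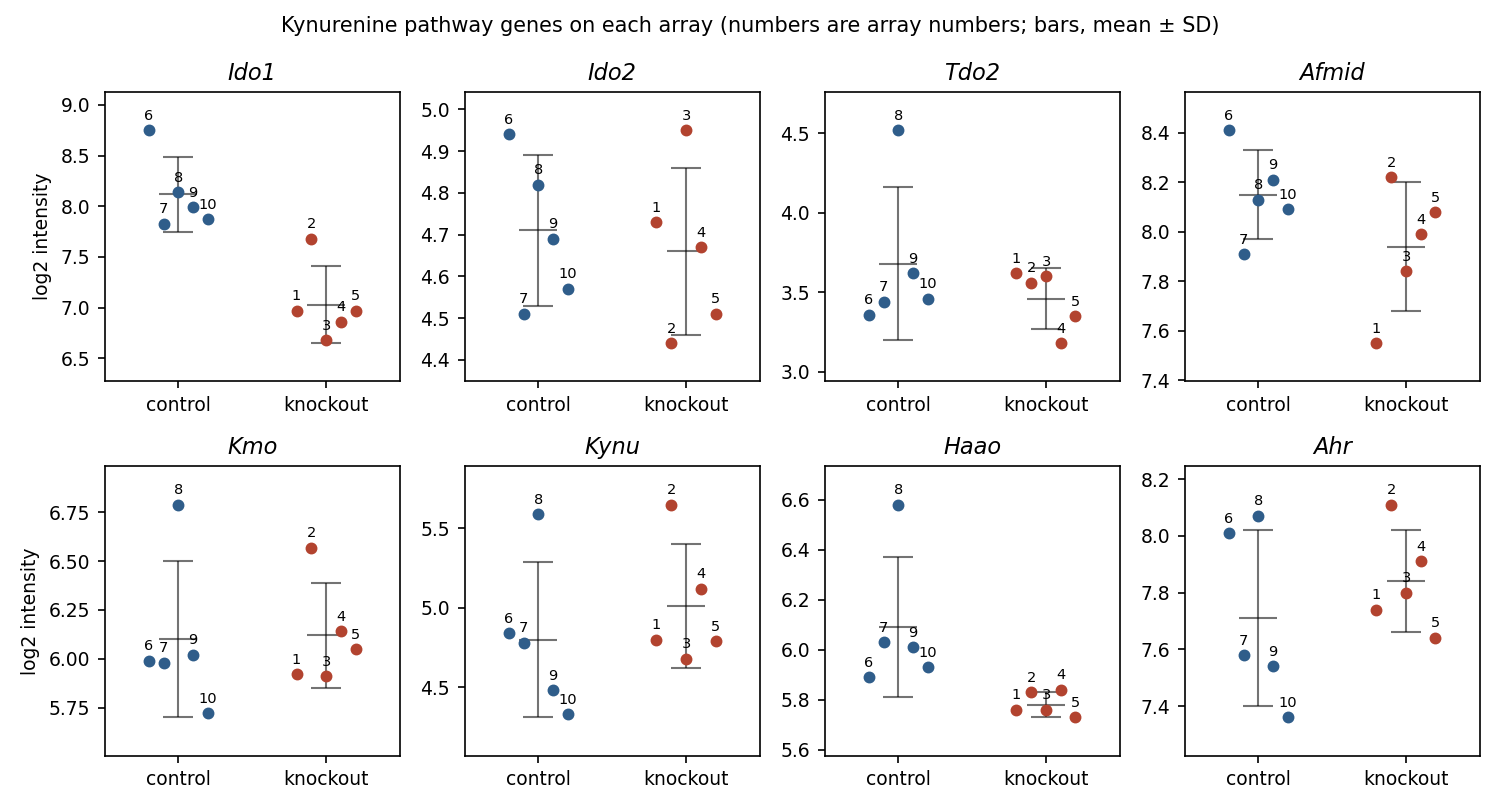
Log2 intensity (vertical axes, a separate scale for each gene) of the 8 genes on each control (blue) and knockout (red) array, with array numbers beside the points and the mean ± SD of each group as bars. Ido1 and Haao do not overlap between the groups, and control 8 is the highest array for Tdo2, Kmo and Haao.

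At the other 2 genes of the ring-opening step the groups overlapped. Ido2, the neighbour of Ido1, begins its annotated span at 24531892 on the same chromosome and ends 7718 bases short of it. Ido2 read 4.73, 4.44, 4.95, 4.67 and 4.51 on the knockouts and 4.94, 4.51, 4.82, 4.69 and 4.57 on the controls. The ranges covered each other almost fully, and the log2 difference was -0.05 (SE 0.12). Tdo2 (chromosome 3) read 3.62, 3.56, 3.60, 3.18 and 3.35 on the knockouts and 3.36, 3.44, 4.52, 3.62 and 3.46 on the controls. Control 8 alone stood above the rest, and the log2 difference of -0.22 (SE 0.20) became -0.01 when that array was left out. No detection calls or background values were used here, so whether genes at such low intensities were above background is unknown.

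Afmid (chromosome 11), which carries out the next step, read 7.55, 8.22, 7.84, 7.99 and 8.08 on the knockouts and 8.41, 7.91, 8.13, 8.21 and 8.09 on the controls. The groups overlapped, with knockout 2 above 4 of the 5 controls. The log2 difference was -0.21 (SE 0.13), and it was -0.12 without knockout 1, the lowest array. Kmo (chromosome 1) read 5.92, 6.57, 5.91, 6.14 and 6.05 on the knockouts and 5.99, 5.98, 6.79, 6.02 and 5.72 on the controls, with a log2 difference of 0.02 (SE 0.19). Its highest arrays were control 8 and knockout 2. The Kmo difference was -0.10 without knockout 2 and 0.19 without control 8.

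Kynu (chromosome 2) had the same 2 arrays at its top. It read 4.80, 5.65, 4.68, 5.12 and 4.79 on the knockouts and 4.84, 4.78, 5.59, 4.48 and 4.33 on the controls, a log2 difference of 0.20 (SE 0.24). That difference was 0.04 without knockout 2 and 0.40 without control 8. The spread within either group was therefore larger than the distance between them.

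Haao (chromosome 17) was, beside Ido1, the other gene whose groups did not overlap. It read 5.76, 5.83, 5.76, 5.84 and 5.73 on the knockouts and 5.89, 6.03, 6.58, 6.01 and 5.93 on the controls. The gap between the groups was 0.05, a few of the 0.01 steps in which the values were deposited. The group means were 5.78 ± 0.05 and 6.09 ± 0.28 (SD, n = 5 each), a log2 difference of -0.30 (SE 0.12). Without control 8, the highest array, the difference was -0.18 (SE 0.08), and the lowest control was still above the highest knockout.

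Ahr (chromosome 12) read 7.74, 8.11, 7.80, 7.91 and 7.64 on the knockouts and 8.01, 7.58, 8.07, 7.54 and 7.36 on the controls. The groups overlapped, and the log2 difference of 0.13 (SE 0.15) ranged from 0.04 without control 10 to 0.22 without control 8. Of the 8 genes, 3 had a positive difference, beside 46.5% of all genes, and 5 a negative one, with a median of -0.13 against -0.014 over all genes tested. By limma, 0 of 8 had an adjusted p under 0.05, beside 0.0271% of all genes (2 of 8 at an unadjusted p under 0.05, beside 13.9%). For 2 of 8 the groups did not overlap with knockouts lower, beside 0.965% of all genes. Since the genes were chosen on this contrast, nothing is read from these shares.

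Tdo2, Kmo and Haao, the 3 genes of the 8 that peaked on control 8, are shown by the 250 bases before their RefSeq start sites (GRCm38.p6), 5′ to 3′ on the strand of the gene. Capitals mark the core of the dioxin response element, the site to which AHR binds, written GCGTG, on either strand. The Tdo2 stretch is chr3:81975729-81975978 on the minus strand, the Kmo stretch chr1:175631943-175632192 on the plus strand and the Haao stretch chr17:83846791-83847040 on the minus strand. The Haao stretch lies inside the annotated span of the gene (83831348 to 83848981). It therefore precedes an internal start site, not the outer 5′ end of that span.
Tdo2: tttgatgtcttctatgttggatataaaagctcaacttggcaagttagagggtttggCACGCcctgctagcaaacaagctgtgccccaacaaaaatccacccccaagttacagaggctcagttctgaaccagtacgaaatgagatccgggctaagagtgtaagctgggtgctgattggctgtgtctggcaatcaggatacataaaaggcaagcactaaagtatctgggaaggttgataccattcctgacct
Kmo: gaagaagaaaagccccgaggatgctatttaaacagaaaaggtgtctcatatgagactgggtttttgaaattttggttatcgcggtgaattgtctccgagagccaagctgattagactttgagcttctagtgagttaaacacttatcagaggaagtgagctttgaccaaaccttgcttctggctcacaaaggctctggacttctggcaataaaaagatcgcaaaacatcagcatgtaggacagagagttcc
Haao: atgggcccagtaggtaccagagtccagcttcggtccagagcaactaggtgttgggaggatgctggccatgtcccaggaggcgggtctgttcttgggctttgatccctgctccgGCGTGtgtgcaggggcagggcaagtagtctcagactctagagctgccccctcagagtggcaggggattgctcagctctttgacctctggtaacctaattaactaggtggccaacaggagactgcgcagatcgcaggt
Tdo2 and Haao each held 1 such core, beginning 194 and 137 bases before the start, and Kmo held 0. The stretch of Afmid, not printed here, also held 0. The core occurred in 28.2% of the 32851 RefSeq promoter stretches of this length. Matches to the interferon motifs GAS (TTCNNNGAA, the same on both strands) and the core of ISRE (both strands) were searched too. Neither was found in the stretches of Tdo2, Kmo, Haao or Afmid, beside 7.02% and 2.98% of all stretches. Only these 4 of the 8 genes had a promoter stretch in the reference used. Ido1, Ido2, Kynu and Ahr had none, so no motif was searched for in them. The Afmid stretch, like that of Haao, lies inside the annotated span of its gene. A match is a stretch of letters, not a site shown to be used.

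Control 8 also carried the highest level of liver transcripts. Of 7 hepatocyte markers, 5 were highest on that array. Albumin (Alb) read 10.41 there against 5.18 to 6.75 on the other 9 arrays, and fibrinogen beta chain (Fgb) read 6.71 against 3.98 to 4.65. Tyrosine aminotransferase (Tat) read 6.50 against 4.57 to 5.44, transthyretin (Ttr) 8.39 against 6.68 to 7.10 and Apoh 6.46 against 4.78 to 5.46. Serpina1a and Cps1, the latter also an enzyme of the small intestine, were not highest on control 8. The score, the mean log2 intensity of the 7 markers, ran from 6.08 to 6.40 in the knockouts and from 6.04 to 7.79 in the controls. Arrays give no zero, so no marker could be called absent.

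Against the mean of the other 4 controls, control 8 was higher by 1.05 for Tdo2, 0.98 for Kynu, 0.86 for Kmo, 0.62 for Haao and 0.45 for Ahr on the log2 scale. The same distance was 0.03 for Ido1 and -0.03 for Afmid. Control 8 was also highest in B and plasma cell markers, with a score of 7.86 against 6.28 to 7.13. The part of liver or lymphoid transcripts in the 5 raised genes was not tested. The Ido1 difference was as large without control 8, at -1.08.

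**Figure D2:**
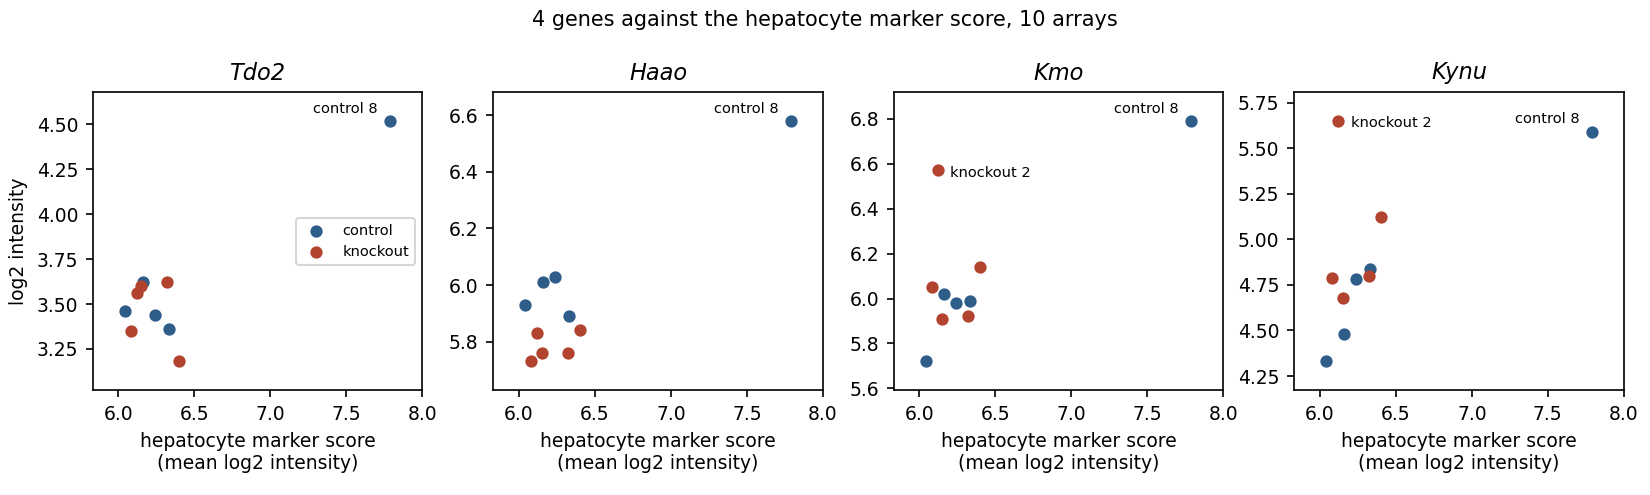
Log2 intensity of Tdo2, Haao, Kmo and Kynu (vertical axes) against the hepatocyte marker score (horizontal axes, mean log2 intensity of 7 markers) on the 5 control (blue) and 5 knockout (red) arrays. Control 8, at a score of 7.79, is apart from the other arrays in all 4 panels, while knockout 2 is high for Kmo and Kynu at a score of 6.12.

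Array to array variation inside the groups is apart from the contrast on which the genes were chosen. The relations below were nevertheless added after values of these arrays had been seen. Among those values were the arrays that stood apart in Paneth and hepatocyte markers, so the p-values do not come from a plan made beforehand. It was examined on deviations from the group means, for 28 pairs of the 8 genes and for 32 pairs of a gene with a list score. The scores were those of interferon gamma response, type I interferon response, Paneth cell and hepatocyte genes. Each of the 60 relations was tested, two-sided, with exact permutation of the arrays inside the groups (14400 pairings), with Benjamini-Hochberg adjustment over the 60. After adjustment 5 passed on Pearson's r and 1 on Spearman's rho.

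Ahr rose and fell with the genes of the type I interferon response, a list of 19 measured genes induced through the interferon alpha and beta receptor. Pearson's r was 0.933 (n = 10, exact permutation p = 5.556e-04, adjusted p = 0.0229) and Spearman's rho 0.964 (exact permutation p = 5.556e-04, adjusted p = 0.0333). Leaving out control 6 and control 10, the arrays farthest from the median score, gave r = 0.941. Control 8, knockout 2 and control 6 were at the high end of both measures, and control 10 at the low end. With the interferon gamma response score r was 0.855 (n = 10, exact permutation p = 0.00951, adjusted p = 0.0951; rho = 0.867, exact permutation p = 0.00715, adjusted p = 0.103; r = 0.750 without control 10 and knockout 5), which did not pass.

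Kmo and Kynu, consecutive users of kynurenine derivatives, varied together. Their r was 0.955 (n = 10, exact permutation p = 0.00139, adjusted p = 0.0278) and their rho 0.818 (exact permutation p = 0.0120, adjusted p = 0.103). Without control 8 and knockout 2, the arrays highest in both, r was 0.752. Kynu and Ahr had r = 0.861 (n = 10, exact permutation p = 7.639e-04, adjusted p = 0.0229; rho = 0.818, exact permutation p = 0.0112, adjusted p = 0.103) and 0.756 without those 2 arrays. Kmo and Ahr had r = 0.776 (n = 10, exact permutation p = 0.00396, adjusted p = 0.0475; rho = 0.564, exact permutation p = 0.123, adjusted p = 0.295) and 0.514 without them, so that this relation rested in large part on control 8 and knockout 2.

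Ido1 ran against the Paneth cell score inside both groups. The r was -0.927 (n = 10, exact permutation p = 0.00361, adjusted p = 0.0475) and the rho -0.827 (exact permutation p = 0.00958, adjusted p = 0.103). Knockout 2 and control 6, the highest Ido1 array of each group, were also the lowest in Paneth markers. Without both, r was -0.628. Ido1 was not alone in this. Against the same score Afmid had r = -0.802 (exact permutation p = 0.0115, adjusted p = 0.0982) and Ahr r = -0.766 (exact permutation p = 0.0166, adjusted p = 0.1195), neither passing. Ido2, Tdo2 and Haao lay between -0.137 and 0.011. Knockout 2 and control 6 were also lowest in crypt stem cell markers (7.61 and 7.28). They were highest in enterocyte (12.89 and 12.93) and T and intraepithelial lymphocyte markers (7.57 and 7.36). The Paneth score itself averaged 10.41 ± 0.87 over knockouts against 9.97 ± 0.84 over controls (SD, n = 5 each), and with it as a covariate the Ido1 difference was -0.90. For the pair of Ido1 and the interferon gamma response r was 0.659 (n = 10, exact permutation p = 0.0499, adjusted p = 0.184; rho = 0.657, exact permutation p = 0.0594, adjusted p = 0.223; r = 0.735 without control 10 and knockout 5). With the type I interferon response Ido1 had r = 0.703 (n = 10, exact permutation p = 0.0271, adjusted p = 0.125), and 0.452 without control 6 and control 10. The rho was 0.571 (exact permutation p = 0.1075, adjusted p = 0.295). Neither interferon relation of Ido1 passed. For Ido1 and Ido2 r was 0.002 (n = 10, exact permutation p = 0.995, adjusted p = 0.995; rho = -0.091, exact permutation p = 0.824, adjusted p = 0.916; r = -0.045 without knockout 2 and control 6).

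**Figure D3:**
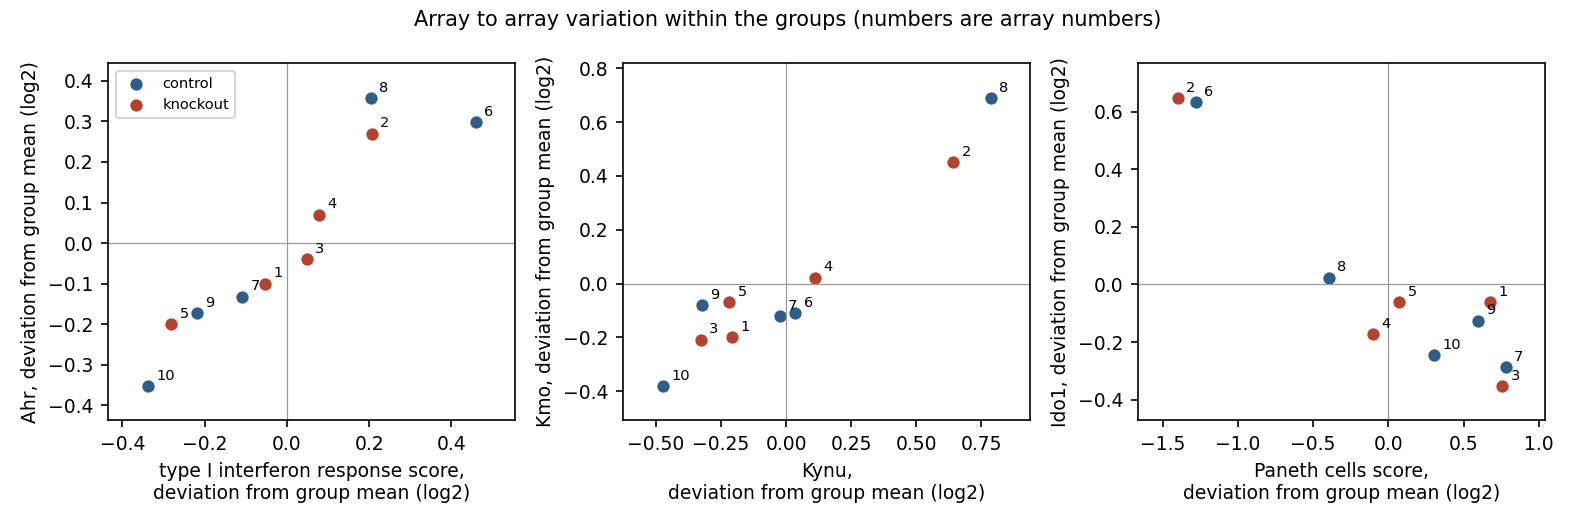
Deviations from the group mean in log2 units for Ahr against the type I interferon response score, Kmo against Kynu, and Ido1 against the Paneth cell score, on 5 control (blue) and 5 knockout (red) arrays with their numbers. The r values are 0.933, 0.955 and -0.927, and control 8 and knockout 2 lie at the upper right for Kmo and Kynu.

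The hepatocyte score and Haao had r = 0.948 (n = 10, exact permutation p = 0.0646, adjusted p = 0.196; rho = 0.888, exact permutation p = 0.0397, adjusted p = 0.199). This rested on the array with liver transcripts, since r was 0.175 without control 8 and 0.048 without control 8 and control 10. The same held for Tdo2, with r = 0.845 (n = 10, exact permutation p = 0.166, adjusted p = 0.343; rho = 0.479, exact permutation p = 0.185, adjusted p = 0.370) and -0.395 without control 8 (-0.472 without control 8 and control 10).

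The genes around the pathway were taken as fixed lists and counted. By limma, 0 of the 97 genes on these lists had an adjusted p under 0.05. At an unadjusted p under 0.05 there were 16 higher and 2 lower, beside 8.29% and 5.56% of all genes tested. Of the 16, 11 came from the 19 genes of the type I interferon response. The lists of other kynurenine branch enzymes, NAD synthesis and salvage, AHR partners and AHR targets held 0. The groups did not overlap for 3 of the 97 genes in the higher and 1 in the lower direction, beside 1.64% and 0.965% of all genes. A positive difference was found for 56 of the 97, beside 46.5% of all genes.

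Enzymes that take kynurenine and its products elsewhere showed little distance between the groups. In the list of other kynurenine branch enzymes (transaminases, the decarboxylase Acmsd, Qprt and Gcdh), 3 of 7 measured genes had positive and 3 negative differences, between -0.22 and 0.32. Qprt, which converts quinolinate into the NAD precursor, read 5.66, 5.61, 5.51, 5.28 and 5.56 on the knockouts and 5.20, 5.47, 5.56, 5.18 and 5.34 on the controls (log2 difference 0.17, SE 0.10). The groups overlapped. Of 10 genes for NAD synthesis and salvage 4 had positive differences, with a median of -0.044. The groups overlapped for all 17 genes of these 2 lists.

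Among transporters of tryptophan and enzymes of its other uses, 1 gene had groups without overlap. Of 9 measured transporter genes 8 had negative differences, between -0.19 and -0.04, and the ninth, Slc7a5, was at 0.71 (SE 0.25), with overlapping groups. Slc6a19, the main apical carrier of tryptophan in the small intestine, read 11.44, 11.60, 11.49, 11.15 and 11.64 on the knockouts and 11.52, 11.33, 11.40, 11.66 and 11.86 on the controls (log2 difference -0.09, SE 0.12). Tph1, which starts serotonin synthesis in enteroendocrine cells, read 5.79, 6.37, 6.46, 6.48 and 6.50 on the knockouts and 7.15, 6.64, 7.19, 6.50 and 6.29 on the controls (-0.43, SE 0.19). Its groups overlapped through control 10 and control 9. The enteroendocrine marker score, which includes Tph1, averaged 7.59 ± 0.19 over knockouts against 7.95 ± 0.09 over controls (SD, n = 5 each), and its part in the Tph1 values was not tested. Inmt, which methylates tryptamine, was the 1 gene of its list of 11 without overlap, with 5.65 to 5.84 on knockouts and 5.85 to 6.23 on controls (-0.26, SE 0.10).

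Targets of AHR gave no common direction. Of 7 measured targets 5 had negative differences, with a median of -0.17, and that median was above 0 in 3 of 22 alternative settings. Cyp1a1, the classical target, read 5.20, 5.72, 4.64, 5.76 and 5.10 on the knockouts and 7.28, 4.94, 5.08, 4.92 and 5.18 on the controls. Control 6 alone was high, and the log2 difference was -0.20 (SE 0.41). The partners of AHR numbered 4 measured genes, with differences between -0.02 and 0.35.

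Most interferon genes had differences of the opposite sign to Ido1. Type I interferon response genes had positive differences in 17 of 19, with a median of 0.54 (0.41 to 0.63 over 22 alternative settings), and interferon gamma response genes in 15 of 22, with a median of 0.17 (0.00 without control 10, to 0.27 with the Paneth covariate). Oas1g, which makes the activator of RNase L, read 9.31, 9.26, 8.78, 8.94 and 8.72 on the knockouts and 8.05, 7.65, 8.12, 7.13 and 6.52 on the controls (log2 difference 1.51, SE 0.27, limma adjusted p = 0.111). Mx2, an antiviral GTPase, was also without overlap, at 5.61 to 5.93 against 4.89 to 5.53 (0.54, SE 0.13, limma adjusted p = 0.130). The direction of both was opposite to that of Ido1, and neither passed the threshold.

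Among the genes that carry the interferon gamma signal, 5 of 8 measured had positive differences. The receptor chain gene Ifngr1 was without overlap, at 11.09 to 11.24 on knockouts and 10.87 to 10.99 on controls (log2 difference 0.21, SE 0.07, limma adjusted p = 0.230). Ifng read 4.61, 4.67, 4.62, 4.88 and 4.56 on the knockouts and 4.45, 4.32, 4.26, 4.53 and 4.70 on the controls (0.22, SE 0.10), with control 10 among the knockout values. Irf1, a transcription factor induced by interferon gamma, was at 8.33 ± 0.27 and 8.24 ± 0.25 (SD, n = 5 each; 0.09, SE 0.15). Macrophage markers, from cells that can make Kmo and Kynu, scored 6.90 ± 0.23 in knockouts against 6.52 ± 0.24 in controls, and T and intraepithelial lymphocyte markers 6.84 ± 0.52 and 6.92 ± 0.40 (SD, n = 5 each). All 11 macrophage markers had positive differences. So had all 8 blood endothelial markers (median 0.74), with scores of 6.60 to 7.50 on knockouts and 5.66 to 6.70 on controls. All 7 tuft cell markers had negative differences (-0.62 to -0.01, median -0.44), as Ido1 had, and their scores did not overlap, at 6.03 to 6.19 on knockouts and 6.30 to 6.56 on controls. This was not particular to tuft cells. Enteroendocrine scores did not overlap either, at 7.36 to 7.79 on knockouts and 7.86 to 8.05 on controls, with 8 of 10 markers negative and 2 positive. Of 8 goblet cell markers 6 were negative and 2 positive, with overlapping scores. The part of these cell types in the values of the 8 genes and of the interferon genes was not tested.

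**Figure D4:**
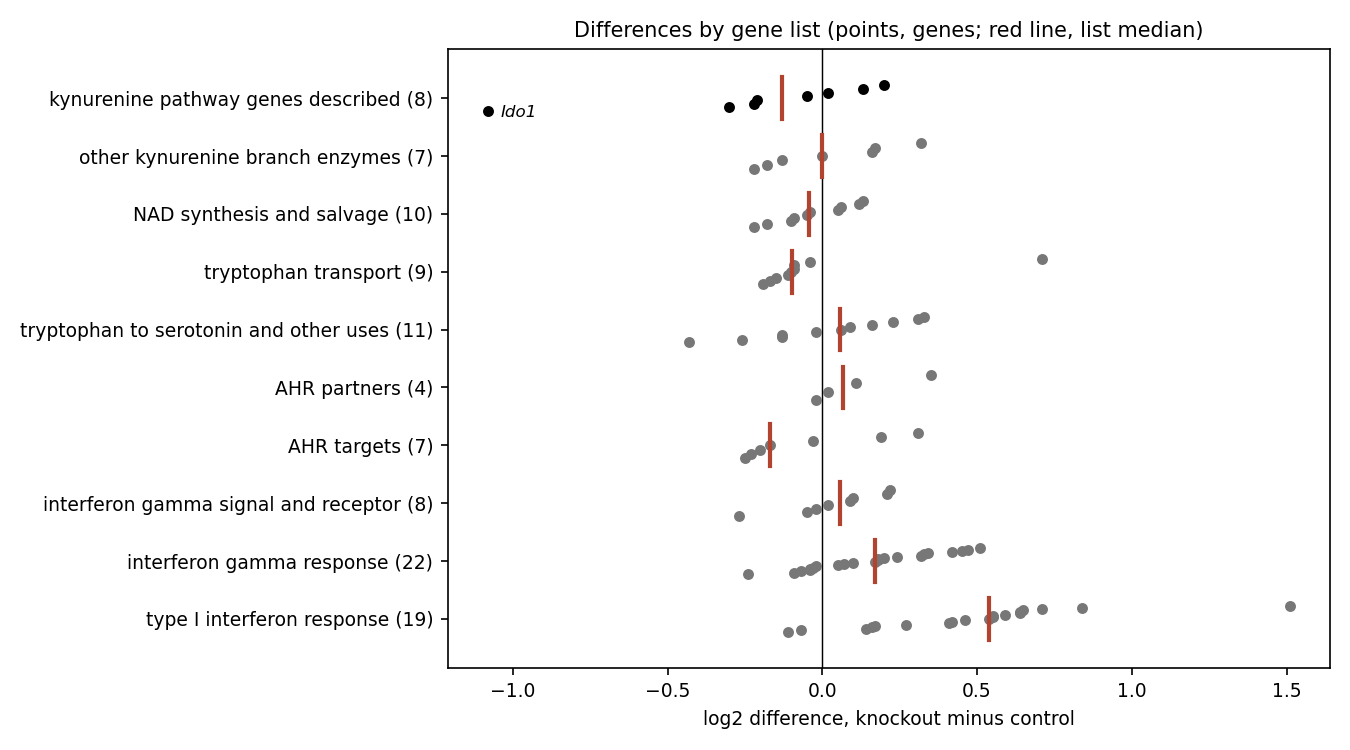
Log2 difference, knockout minus control (horizontal axis), of each gene (points) in the 8 kynurenine genes and in the 9 surrounding lists, with the number of measured genes in parentheses and the list median as a red line. Ido1 at -1.08 is the leftmost point, and the type I interferon response has the highest median, 0.54.

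The genes closest to Ido1 were sought among 10335 other genes with a mean log2 intensity of at least 6, by Pearson's r across the 10 arrays, given as a description. The 8 closest on the values themselves were Enox2 (0.971), Ano7 (0.958), Camk2n1 (0.951), Abi3 (0.943), Kalrn (0.942), Bhlhe40 (0.940), Tnfsf13b (0.939) and Fras1 (0.935). All of them had negative differences, from -1.53 (SE 0.30) for Fras1, a basement membrane protein gene, to -0.15 (SE 0.08) for Abi3. The groups did not overlap for Ido1, so a high r with it favours genes that are lower on the knockouts. The shared sign therefore follows from how these genes were picked and is not a separate result. On deviations from the group means the 8 closest were Kdm2a (0.973), Il13ra1 (0.968), Gmip (0.967), Ttc39c (0.965), Sec23ip (0.964), Lmtk2 (0.960), B4galnt3 (0.958) and Efr3b (0.957). Their differences between the groups lay between -0.11 and 0.16. The points share arrays and tissue makeup, knockout 2 and control 6 among them.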

How the data were processed

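RNA of 10 jejunum samples was read on Affymetrix whole-transcript arrays, 1 per sample and 5 per group. The authors deposited RMA intensities on the linear scale (1.88 to 15500.2), for which the submitters' processing notes name Affymetrix Expression Console 1.4.1.46; build and annotation are not given in the sources used here. Their log2 values fall on steps of 0.01. Log2 was taken. RMA had equalised the arrays, so differences are relative.

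Of 34472 probe sets, 23521 had 1 gene symbol. The one with the highest mean was kept per gene, leaving 22180 genes without an intensity filter. The group difference was fitted by lmFit and eBayes (limma 3.58.1, R 4.3.3; two-sided) and called at a Benjamini-Hochberg adjusted p under 0.05 over all genes. Arrays carry no read depth: their number limits the precision.

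The 8 genes, lists and tests were chosen with earlier results of these data known. Named are the 8 genes, Pcyt1a, up to 3 called or otherwise non-overlapping genes per list, the preset genes Cyp1a1, Tph1, Slc6a19, Qprt, Irf1 and Ifng and the 8 closest to Ido1 by each measure. Slc7a5, Wars, Wars2 and the liver genes were named after their values were seen, and the 60 within-group relations were added then. Alternatives covered intensity filters, normalization, variance model, probe set rule, marker covariates and left-out arrays. Of 279 list entries 255 were measured. Protein sequences were not used here.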

Additional observations from a re-analysis of the deposited data

Results flagged for a closer look

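Single arrays stood far from the others of their group, by Dixon's ratio of the gap to the range above the 95% critical value for 5 arrays, in 8 of 70 groups checked. Chance gives about 1 in 20. Among the kynurenine genes these were Tdo2 on control 8 (4.52, others 3.36 to 3.62), Kmo on control 8 (6.79, others 5.72 to 6.02) and Haao on control 8 (6.58, others 5.89 to 6.03). The hepatocyte score on the same array was 7.79 (others 6.04 to 6.33).

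Of the other marker scores, that of crypt stem cells was lowest on knockout 2, at 7.61 (others 8.27 to 8.37), and that of mast cells was highest on knockout 5, at 5.26 (others 4.68 to 4.74). On knockout 1 the fibroblast score was 8.18 (others 6.69 to 7.12) and the smooth muscle score 8.27 (others 6.78 to 7.01).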

How the results depend on the processing

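The Ido1 difference was negative in all 22 alternatives, from -1.25 without knockout 2 to -0.90 with the Paneth score as a covariate. With any 1 array left out it ran from -1.25 to -0.93. Leaving out arrays could not change its sign, since every knockout lay below every control. The differences of Afmid, Kynu, Haao and Ahr kept their sign in every alternative that gave a value, and those of Ido2, Tdo2 and Kmo in 17 of 20, 19 of 20 and 14 of 22. All 169 alternative values of the 8 genes moved by less than 1 SD, and of the list medians 193 moved by less and 5 by more. For the 8 genes much of this was fixed in advance. Intensity filters, a variance trend and averaging of probe sets could not change their differences, since each had 1 probe set. Leaving out any 1 array could not move a difference by 1 SD.

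Over all genes, 6 were called, and the count was 2 with median centring, 2 with a further quantile normalization, 2 without the 3 arrays highest in smooth muscle markers and 2 without the 2 highest in B and plasma cell markers. It was 146 with the Paneth covariate and, in a setting chosen after seeing the data, 326 without the 2 arrays lowest in Paneth markers (knockout 2 and control 6). With 1 array left out it ran from 2 (with knockout 1 or 3 or any of controls 6, 7, 8 and 9 removed) to 452 (without knockout 2), and it was 3 without control 10. The cause was not tested. No paired analysis was made because the labels give no pairing, batch or block. Signal over background was not used here, which limits what can be said of Tdo2, Ido2 and Kynu.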

Other observations

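The 2 tryptophanyl-tRNA synthetase genes, which charge tRNA with tryptophan for protein synthesis, had positive differences, unlike Ido1. Wars, the cytosolic enzyme, averaged 8.72 ± 0.20 over knockouts against 8.39 ± 0.12 over controls (SD, n = 5 each), a log2 difference of 0.33 (SE 0.11, limma adjusted p = 0.211). Wars2, the mitochondrial enzyme, was at 6.36 ± 0.17 and 6.05 ± 0.07, a log2 difference of 0.31 (SE 0.09, limma adjusted p = 0.193). Slc7a5, the light chain of the carrier LAT1 for large neutral amino acids, was at 7.47 ± 0.50 and 6.76 ± 0.40 (0.71, SE 0.25, limma adjusted p = 0.229). The groups overlapped for all 3 genes, and none passed the threshold.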
